A study of Homo sapiens with 16 samples.

Results

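A427 is an established human lung carcinoma line. It was described here as a line, by the mean of its 2 arrays against the 14 arrays of the other 7 lines, and as a culture, by its array from Matrigel minus its array from plastic. Its members are therefore the 2 arrays of this line among the 16 of the series. The other lung cancer lines were H1703, H1437, H661, H460, H358, H23 and A549, all untreated. Each line gave 1 array of cells on tissue culture plastic (2D) and 1 array of cells on a thin bed of Matrigel, a basement membrane extract, under medium holding 2% Matrigel (3D), at like density and medium. Within A427 there was thus 1 array per culture, so differences between its cultures carry no replicate check.

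A427 is known for an activating mutation of CTNNB1, the gene of beta-catenin, beside loss of the STK11 and SMARCA4 tumour suppressors. In the canonical WNT pathway a destruction complex built on AXIN and APC marks beta-catenin for degradation. When that marking fails, beta-catenin enters the nucleus, binds the TCF and LEF factors and switches on targets, among them feedback inhibitors such as AXIN2, NKD1 and DKK1. SMARCA4 and SMARCA2 are the alternative ATPases of the SWI/SNF chromatin remodelling complex, and STK11 (LKB1) is a kinase upstream of AMPK.

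Promoter windows are shown for SP5, DKK1 and LEF1, 3 of the 8 direct WNT targets that lay higher on both A427 arrays than on the other 14. APCDD1, another of the 8, had 0 motif matches in its window and is not shown. Each window is the 250 bases before the annotated gene start, 5′ to 3′ on the gene's strand, from RefSeq on GRCh38.p14. Capitals mark the core of the TCF/LEF motif, searched as CTTTGAA and CTTTGAT on both strands (TTCAAAG and ATCAAAG). SP5, a transcription factor, lies at chr2:170715087-170715336 on the plus strand, and its window held 3 matches, which begin 148, 109 and 84 bases before the start. DKK1, a secreted WNT inhibitor, lies at chr10:52314031-52314280 on the plus strand, with 1 match 95 bases before the start. The window of LEF1, chr4:108166302-108166551 on the minus strand, held 0 matches.
SP5: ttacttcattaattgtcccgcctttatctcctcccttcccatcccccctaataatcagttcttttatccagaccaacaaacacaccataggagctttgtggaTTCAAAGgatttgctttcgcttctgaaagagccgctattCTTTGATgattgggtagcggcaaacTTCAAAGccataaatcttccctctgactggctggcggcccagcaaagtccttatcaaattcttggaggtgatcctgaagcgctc
DKK1: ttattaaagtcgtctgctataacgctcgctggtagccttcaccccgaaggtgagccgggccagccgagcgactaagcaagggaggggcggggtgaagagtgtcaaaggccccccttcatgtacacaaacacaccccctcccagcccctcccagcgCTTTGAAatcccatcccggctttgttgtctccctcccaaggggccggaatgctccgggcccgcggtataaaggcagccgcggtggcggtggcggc
LEF1: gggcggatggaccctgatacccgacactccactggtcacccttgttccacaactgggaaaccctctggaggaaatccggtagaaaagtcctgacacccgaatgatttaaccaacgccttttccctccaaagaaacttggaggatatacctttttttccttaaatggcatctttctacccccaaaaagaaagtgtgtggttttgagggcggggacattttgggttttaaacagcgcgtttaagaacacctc
Of 11 tested WNT targets with a window in the promoter table, SP5 and DKK1 were the 2 with a match (18.2%), against 1646 of 27305 windows in all (6.03%) and 472 of 11981 windows of tested genes (3.94%). Among genes called higher in A427 by the test described next, 4 of 42 windows held a match (9.52%), and among those called lower 1 of 9 (11.1%). A match is a description of these letters only.

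Expression was measured with Affymetrix U133 Plus 2.0 arrays, and every value is the log2 of a ratio to a reference of the probe set's own, so the levels of different genes cannot be compared. A gene's value is the mean of its probe sets that passed the filter on dim probe sets, and 15029 genes were tested, 7802 of them on more than 1 probe set. Array medians lay between -0.28 and -0.07, with A427 at -0.15 in 2D and -0.13 in 3D. Over all tested genes A427 correlated with itself across the cultures at r = 0.947 and with no array of another line above 0.215, the nearest being H1703. Both arrays thus stood closest to each other. In bulk RNA, fewer cells that express a gene and less of its RNA per cell cannot be told apart.

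Against the other 7 lines, 57 genes were called higher (0.379% of 15029) and 10 lower (0.0665%), together 67 (0.446%; 835 at an unadjusted p under 0.05), by limma on 8 line means at a Benjamini-Hochberg adjusted p under 0.05. The same contrast made in turn for the other lines called between 10 genes (H1703) and 244 (H661), so the number in A427 lies inside that range. In all, 57 genes passed the filter only through the A427 arrays and had to differ, and 35 of them are among the genes called higher, so those 35 are a description. Without these genes the fit called 12. The 10 higher were FGF20, WNT16, ROBO2, CPOX, NLGN4X, SPRR2B, LEF1, YPEL3-DT, SYTL3 and APCDD1, and the 2 lower were PRKCSH and NME3. A gene stayed in that fit if any of its probe sets passed without A427, so its mean may still hold dim probe sets that passed through A427. FGF20 rests on 1 dim probe set, which passed without A427. LEF1, APCDD1, ROBO2 and WNT16 held dim probe sets, and whether these passed without A427 was not checked. The calls of LEF1, APCDD1, ROBO2 and WNT16 may thus rest on probe sets kept because A427 was high. Their other probe sets lay 0.85, 0.26, 3.34 and 4.28 above the other lines, in that order. The p-values set A427 against the spread of the other 7 lines and assume that A427 would vary like them. A large difference was not always called: GREM1, a BMP antagonist, stood at 7.85 and 7.44, and A549 reached 7.58 (limma, adjusted p = 0.852).

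**Figure D1:**
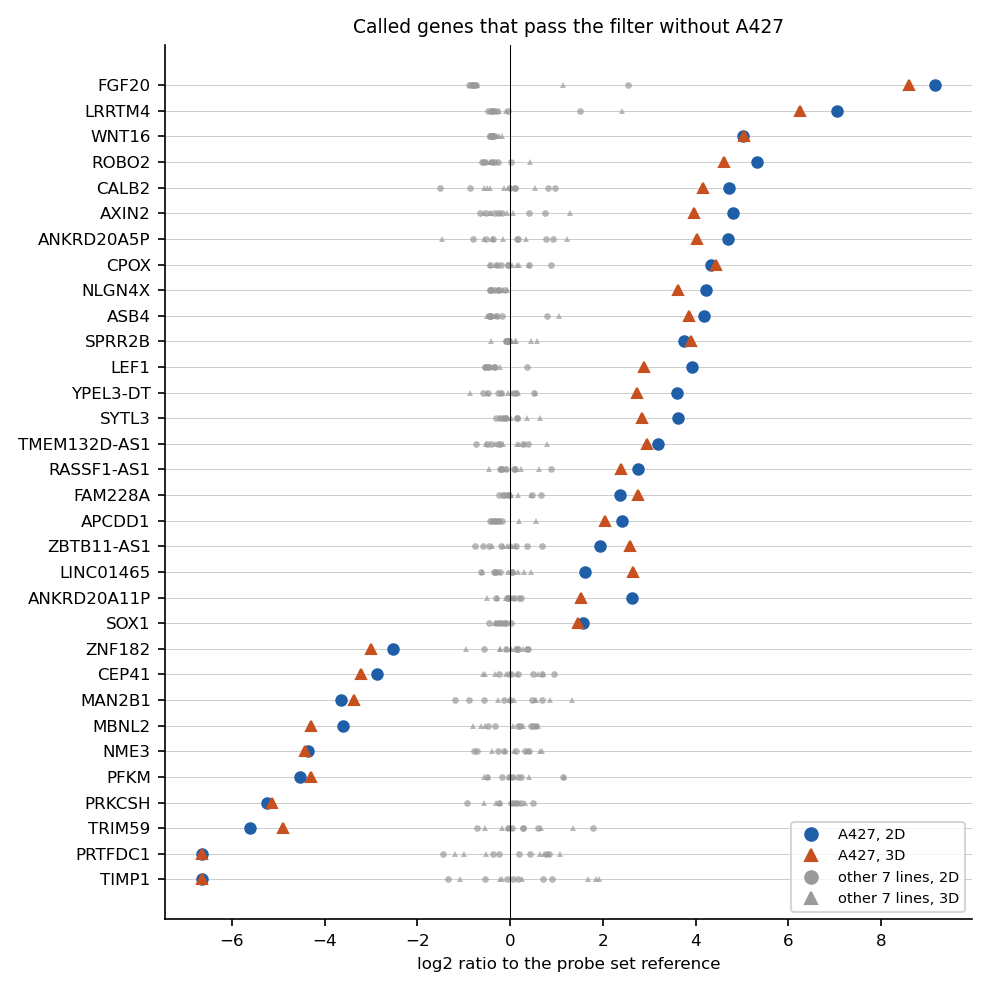
Log2 ratio (x axis) of the 32 called genes that pass the filter without A427, with A427 as a blue circle (2D) and an orange triangle (3D) and the 14 arrays of the other 7 lines in grey. Both A427 symbols lie outside the grey range for each gene, from FGF20 at 9.17 and 8.60 down to TIMP1 at -6.64 on both arrays.

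The WNT targets held 4 of the called genes. FGF20, a fibroblast growth factor gene and known beta-catenin target, stood at 9.17 in 2D and 8.60 in 3D, on 1 dim probe set. In the other lines it had a median of -0.79 and a range of -0.89 to 2.53, and the values above 0 were those of H23 (2.53 and 1.14). Its mean in A427 was 9.31 above that of the other lines, whose SD was 0.998 (n = 7 lines; limma, adjusted p = 0.0114). AXIN2, the scaffold of the destruction complex and a feedback target, stood at 4.81 in 2D and 3.97 in 3D. The other arrays ran from -0.64 to 1.30 around a median of -0.23, and the highest was H1437 in 3D. The difference was 4.47 (SD 0.53, n = 7 lines; limma, adjusted p = 0.0236), with its 4 probe sets between 2.80 and 6.35, the one at 3.34 dim. It ended at an adjusted p of 0.0613 when the genes that pass only through A427 were left out.

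LEF1, a transcription factor that partners beta-catenin, stood at 3.92 in 2D and 2.88 in 3D, against -0.54 to 0.36 (median -0.44) on the other arrays. It differed by 3.77 (SD 0.21, n = 7 lines; limma, adjusted p = 0.00137), with 3 probe sets at 0.85, 2.91 and 7.54, all but the first dim. APCDD1, a membrane inhibitor of WNT signalling, stood at 2.41 and 2.05, against -0.43 to 0.56 (median -0.27). It differed by 2.43 (SD 0.20, n = 7 lines; limma, adjusted p = 0.0146), but its probe sets gave 4.61 (dim) and 0.26. None of the arrays of the other lines reached A427 for these 4 genes.

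Of 27 direct WNT targets listed, 23 were tested. Besides those 4, the A427 arrays lay above all other 14 for SP5, DKK1, ASCL2 and CCND1, which gives 8 of 23, and below them for 0 of 23. In that count FGF20, AXIN2, LEF1 and APCDD1 held dim probe sets. Over all genes both arrays lay above the other 14 for 980 (6.52%) and below for 644 (4.29%). The list's median difference was 1.05, against 0.01 over all genes tested. SP5 stood at 0.93 in 2D and 1.10 in 3D against a highest other value of 0.63 (limma, adjusted p = 0.785). DKK1 stood at 2.87 and 2.71 against 1.96, with other lines spread down to -6.64. ASCL2, a stem cell factor of the gut, stood at 1.26 and 0.42 against 0.40, and CCND1, the G1 cyclin D1, at 1.96 and 1.56 against 1.53. Those 4 genes did not pass the test.

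The other targets lay within the range of the other lines on at least 1 A427 array. The ubiquitin ligase RNF43, a feedback inhibitor, stood at 2.30 and 2.56 under a highest other value of 3.33, and its relative ZNRF3 at 0.66 and 0.65 under 1.82. The feedback inhibitors NKD1 (0.33 and 0.72) and NKD2 (1.12 and 1.71) passed the highest other value, 0.35 and 1.53, in 3D alone. NOTUM, a secreted WNT deacylase, stood at 0.39 and 0.15, KREMEN1, a DKK co-receptor, at 0.29 and 0.32, and MYC at -0.30 and 0.19. The growth factor FGF9 stood at 1.95 and 1.28 and the receptor TNFRSF19 at 1.73 and 1.16, both inside wide ranges. SFRP1, a secreted WNT antagonist, stood at 0.94 and 0.78, WIF1, another, at -0.02 and 0.13, and BMP4 at -0.19 and -0.14. LGR6, an R-spondin receptor, stood at -0.21 and -0.41, the homeobox gene CDX1 at 0.00 and 0.10 and PRICKLE1 at -0.18 and 0.01. Thus 15 of the 23 tested targets did not stand outside the other lines on both arrays.

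CTNNB1 itself stood at -0.02 in 2D and 0.03 in 3D, inside the range of -0.35 to 0.83 of the other lines. Of 31 tested genes of the pathway's machinery, 0 were called by limma, 3 lay above the other 14 arrays and 1 below. The shares over all genes were 6.52% and 4.29%. The 3 above were the kinase GSK3B (0.90 and 0.61), the cytoplasmic transducer DVL3 (1.46 and 1.29) and the nuclear cofactor PYGO1 (1.02 and 0.63). WNT16, a WNT ligand gene outside both lists, stood at 5.02 and 5.04, against -0.44 to -0.18 (median -0.38) in the other lines. It differed by 5.39 (SD 0.06, n = 7 lines; limma, adjusted p = 0.000174), with probe sets at 4.28 and 6.50. No array of the other lines came above 0 for WNT16. WNT10A, another ligand gene, was among those that passed only through A427, at 1.67 in 2D and 2.74 in 3D against a highest other value of 0.28.

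**Figure D2:**
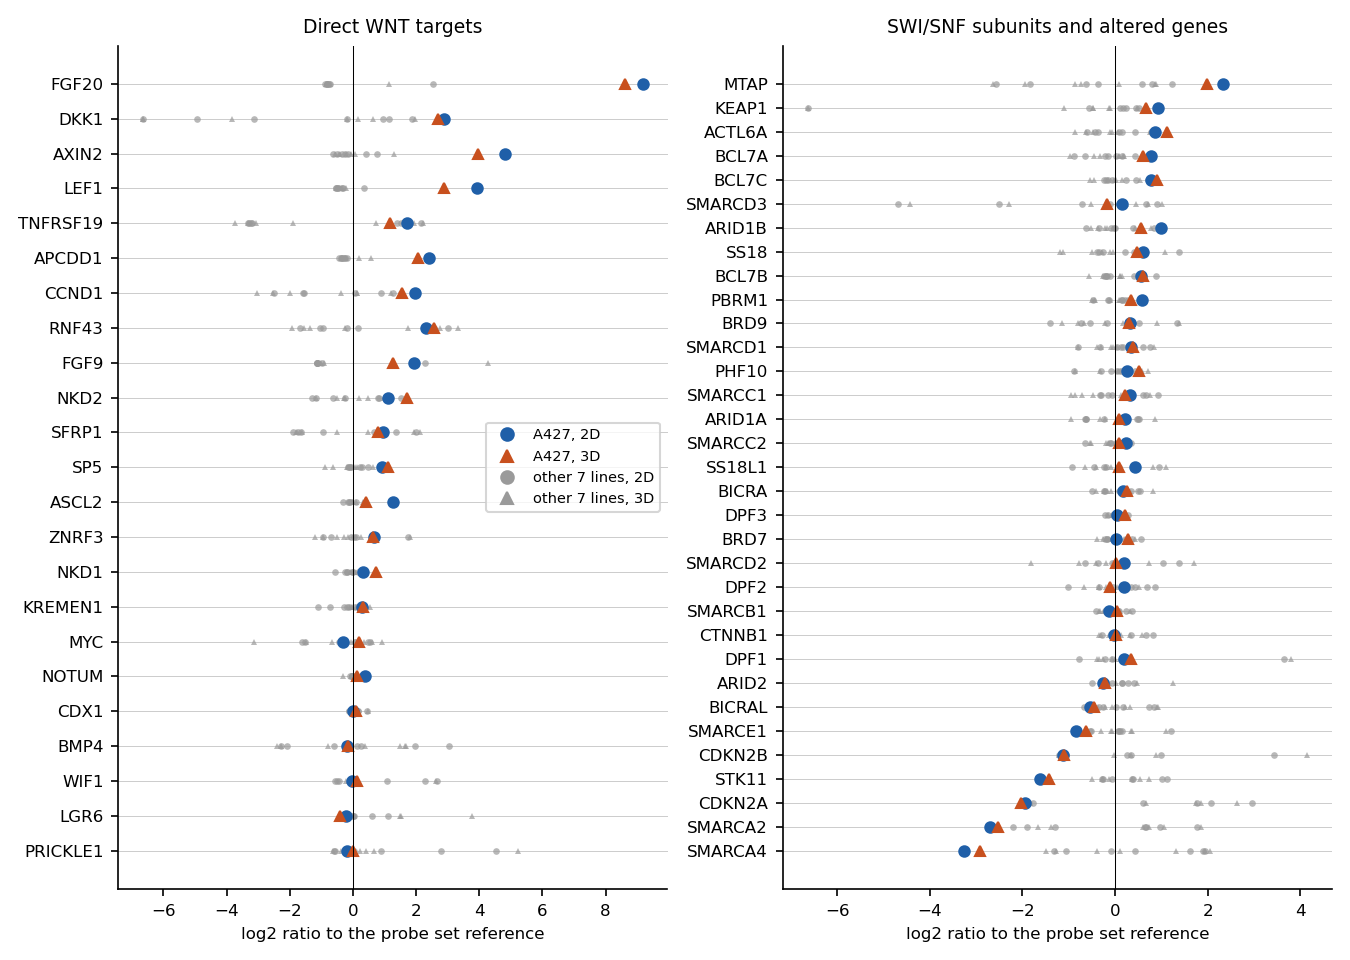
Log2 ratio (x axis) of 23 direct WNT targets (left) and of the SWI/SNF subunits with STK11, CDKN2A, CDKN2B, MTAP, CTNNB1 and KEAP1 (right), ordered by A427 minus the other lines. Blue circles and orange triangles are A427 in 2D and 3D, and grey symbols are the arrays of the other 7 lines; FGF20, AXIN2, LEF1 and APCDD1 stand right of all grey symbols and SMARCA4 and STK11 left of them.

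ROBO2, an axon guidance receptor for SLIT, stood at 5.33 and 4.62 against -0.60 to 0.44 (median -0.39), a difference of 5.31 (SD 0.26, n = 7 lines; limma, adjusted p = 0.000800) with 3 probe sets between 3.34 and 6.85. NLGN4X, a synaptic adhesion protein of the neuroligin family, stood at 4.23 and 3.63 against a highest other value of -0.07. LRRTM4, a synaptic leucine-rich repeat protein, stood at 7.04 and 6.25, and A549 reached 2.42. CPOX, an enzyme of heme synthesis, stood at 4.34 and 4.45 against -0.44 to 0.89. SYTL3, a vesicle trafficking protein, stood at 3.62 and 2.86 against a highest value of 0.65. SPRR2B, of the cornified envelope, stood at 3.74 and 3.89, and its probe set could also bind near-identical SPRR2 genes. NLGN4X, CPOX, SYTL3 and SPRR2B are named because they stayed called without the genes that pass only through A427, and not by the rule for named genes.

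The leading genes that passed only through A427 include GPR15, a chemoattractant receptor, at 8.28 and 8.02 against a highest other value of -1.04. PTPRZ1, a receptor tyrosine phosphatase of neural cells, stood at 7.61 and 7.88 against 1.85. MGAT4C, a glycosyltransferase gene, stood at 5.67 and 5.18 and the cadherin CDH12 at 4.92 and 4.67. OLIG1, a transcription factor of oligodendrocytes, stood at 4.09 and 4.44, and the giant cadherin FAT3 at 4.67 and 3.79. CD96, a receptor of T and NK cells, stood at 3.92 and 4.61. SPRR3 (3.69 and 4.35), MYH15 (4.39 and 4.77), BEND4 (5.23 and 4.63) and LINC01029 (4.76 and 4.67) complete the 15 highest called genes with FGF20, LRRTM4, WNT16 and ROBO2. Genes that were not called stand outside this ranking, whatever their size. Among them GCG, on a dim probe set, differed from the other lines by 11.33 and the chemokine gene CCL20 by 6.36. For CCL20, A427 (6.18 and 6.99) lay under both arrays of H23 (8.23 and 7.39).

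On the low side, PRKCSH, the beta subunit of glucosidase II in glycoprotein folding, stood at -5.25 in 2D and -5.14 in 3D. The other arrays ran from -0.92 to 0.48 with a median of 0.07. Its difference from the other lines was -5.15 (SD 0.34, n = 7 lines; limma, adjusted p = 0.0101), with probe sets at -6.62 and -3.68. The first of these was at the lowest ratio of the table on both A427 arrays, so the difference is a bound in size. NME3, a nucleoside diphosphate kinase, stood at -4.36 and -4.43 against -0.78 to 0.70, a difference of -4.44 (SD 0.39; limma, adjusted p = 0.00734). For these genes the lowest of the other arrays lay more than 3 log2 units above A427.

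TIMP1, the inhibitor of matrix metalloproteinases, and PRTFDC1, a phosphoribosyltransferase-like gene, stood at -6.64 on both A427 arrays, the lowest ratio in the table, so their differences of -6.94 and -6.70 are bounds in size. The lowest other values were -1.34 and -1.45. TRIM59, a ubiquitin ligase, stood at -5.60 and -4.89, and PFKM, the muscle form of the glycolytic phosphofructokinase, at -4.54 and -4.29. MBNL2, a splicing regulator, stood at -3.61 and -4.29 with 4 probe sets between -6.57 and -2.04 against the other lines, the one at -6.57 at the lowest ratio of the table on both A427 arrays. The lysosomal mannosidase MAN2B1 (-3.64 and -3.38), the centrosomal CEP41 (-2.86 and -3.22) and the zinc finger gene ZNF182 (-2.53 and -2.99) complete the list. Without the genes that pass only through A427, these 8 lay at adjusted p-values of 0.0501 (PFKM), 0.0517 (TRIM59), 0.0613 (MBNL2), 0.0722 (TIMP1), 0.0832 (ZNF182), 0.0910 (CEP41), 0.100 (PRTFDC1) and 0.103 (MAN2B1; limma).

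SMARCA4, a SWI/SNF ATPase, stood at -3.26 in 2D and -2.93 in 3D, below all other arrays, whose range was -1.49 to 2.06 around a median of 0.27. In all, 4 of its 7 probe sets lay between -5.43 and -4.70 against the other lines, and the remaining 3 between -1.76 and -0.51. Among the other lines A549 and H661 also lay under -1 on both arrays, so the other lines were spread widely (SD 1.42) and the difference of -3.50 did not pass the test (limma, adjusted p = 0.799). SMARCA2, the alternative ATPase, stood at -2.71 and -2.53, and the lowest other value was -2.55. Of 27 tested subunits 0 were called by limma, 4 lay above the other 14 arrays and 2 below, beside 6.52% and 4.29% of all genes.

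The second subunit below the other lines was SMARCE1, which binds DNA (-0.84 and -0.63). The 4 above were ACTL6A, an actin-like subunit (0.86 and 1.13), BCL7A (0.78 and 0.60), BCL7C (0.78 and 0.91) and PBRM1, the bromodomain protein of the PBAF form (0.59 and 0.33). The core subunit SMARCB1 stood at -0.12 and 0.03, the scaffolds SMARCC1 at 0.31 and 0.21 and SMARCC2 at 0.23 and 0.08, and the AT-rich binding subunits ARID1A at 0.22 and 0.08, ARID1B at 0.99 and 0.57 and ARID2 at -0.26 and -0.21. The list's median difference was 0.25. The other subunits lay inside the range of the other lines on at least 1 array, with differences between -0.66 (BICRAL) and 0.78 (SMARCD3). SMARCA4 and SMARCA2 had the most negative differences of the list, -3.50 and -2.43.

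STK11 stood at -1.61 in 2D and -1.43 in 3D, and the other arrays ran from -0.50 to 1.12 (median 0.14). Its difference of -1.71 (SD 0.49, n = 7 lines) did not pass the test (limma, adjusted p = 0.49), and its 3 probe sets gave -3.60, -1.10 and -0.44. CDKN2A, the INK4A and ARF inhibitor gene, stood at -1.94 and -2.02 against a lowest other value of -1.92, with probe sets at -3.49, -3.18 and 0.03. Its neighbour CDKN2B, the INK4B inhibitor, stood at -1.13 and -1.11, inside the range of -1.22 to 4.15. MTAP, a methionine salvage enzyme next to CDKN2A on the other side, stood at 2.32 and 1.98, above the highest other value of 1.23. KEAP1, the adaptor that degrades NRF2, stood at 0.92 and 0.68, above the highest other value of 0.53.

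The genes that neighbour these loci in RefSeq order on chromosome 19 were looked at after values were seen. The tested genes within 6 places of SMARCA4 lay between -0.45 and 0.60 on the A427 arrays, and DOCK6, CARM1 and DNM2 lay at -0.45 and -0.30, 0.06 and 0.23, and 0.14 and -0.15. Next to STK11, CBARP stood at 0.16 and 0.14 and SBNO2 at -0.94 and -1.06, both inside the range of the other lines. Of 16 tested genes within 8 places of STK11, ABCA7 lay below the other 14 arrays (-1.20 and -1.17) and EFNA2 (3.78 and 3.25) and PWWP3A (1.35 and 0.69) above them. Over all genes 4.29% lay below and 6.52% above. PRKCSH, also on chromosome 19, had ODAD3 (-0.81 and -0.74) and ELAVL3 (0.18 and 0.00) beside it. ODAD3 lay below the other 14 arrays, whose lowest value was -0.33, and ELAVL3 lay inside their range. For TIMP1 on chromosome X the nearest tested genes, SYN1 (0.31 and 0.01) and ELK1 (1.29 and 1.23), were not low.

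The pathway and lineage lists below held no gene called by limma, so their members are given as levels against the other 14 arrays. Endoplasmic reticulum chaperones lay above the other 14 on 7 of 19 genes and cholesterol synthesis genes on 6 of 18, with median differences of 0.52 and 0.78, where 6.52% of all genes lay above and 4.29% below. Proteasome subunits did so on 6 of 25 and output genes of the ERK pathway on 5 of 20. NRF2 targets had a median of -1.29, and 1 of 22 lay below the other arrays. It was GCLC, the catalytic subunit of glutathione synthesis, at -1.68 and -1.22. The aldo-keto reductase AKR1C3 stood at -3.52 and -3.46, inside the range of -3.57 to 9.42 of the other arrays. H23 (-3.56 and -3.47) and H661 (-3.45 and -3.57) lay at a like level. Metallothioneins had a median of -1.70 over 9 genes. Basement membrane genes had a median of -1.24 over 19, with HSPG2 (perlecan) at -1.09 and -1.14, below the other arrays.

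Of 29 receptor tyrosine kinases 4 lay above the other 14 arrays and 0 below, with a median difference of -0.01. The shares over all genes were 6.52% and 4.29%. Among the 4 were FGFR2 (0.87 and 0.81), FGFR3 (1.15 and 1.63) and FGFR4 (1.33 and 1.42), where the highest other values were 0.51, 0.49 and 0.73. The 7 probe sets of FGFR2 differed in sign, from -0.50 to 2.37. Of 18 stem and oncofetal genes (median 0.49) 4 lay above and 0 below, among them TERT (1.84 and 1.34) and HMGA2 (2.58 and 2.65). Of 31 TGF-beta and BMP genes (median -0.18) 0 lay above and 2 below. They were SMAD3 (-3.89 and -3.59) and SMAD7 (-2.22 and -2.51), a mediator and an inhibitor of TGF-beta signalling. Of 37 interferon-stimulated genes 1 lay above and 2 below, beside shares over all genes of 6.52% and 4.29%. They were IFIH1, the RNA sensor MDA5 (4.07 and 4.13), IFIT1 (-3.87 and -2.38) and IFIT3 (-3.31 and -2.95). These genes did not pass the test.

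The labels give the cells as lung cancer cells, and the epithelial and lineage lists were read as a check. Epithelial genes had a median difference of 1.14 over 34 genes, and 4 of them, the tight junction genes CLDN1 (4.13 and 3.85) and OCLN (1.46 and 1.48) with AP1M2 and LSR, lay above the other 14 arrays. For this list and the next ones, the shares over all genes were 6.52% above and 4.29% below. Of markers chosen for mention after values were seen, EPCAM stood at 3.37 and 3.65, KRT8 at -0.38 and 0.03 and KRT18 at -0.24 and 0.21. KRT19 (-3.79 and -3.90) and KRT7 (-2.99 and -2.05) were low in the range of the other lines, and CDH1 (E-cadherin) stood at -1.39 and -1.02. Mesenchymal genes had a median of -0.64 over 29 genes, yet VIM stood at 1.26 and 1.42, above all others. Lung lineage genes had a median of -0.15, and 2 of 19, ETV5 (1.61 and 1.28) and SFTPB (0.30 and 0.41), lay above. Gut and liver endoderm genes had a median of -0.36, and 2 of 20, GATA4 (2.47 and 2.09) and CDX2 (0.47 and 0.97), lay above. Neuroendocrine and neural genes had a median of -0.38 over 21, with 0 called by limma, 0 above the other arrays and 1 below. In that list ENO2, a neuronal enolase, differed by -3.04 and NEFH, a neurofilament, by 3.41. A ratio gives no absolute level, so the presence of a marker cannot be read from it.

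Of the markers of other cell types with a probe set, 6 of 13 leukocyte, 4 of 9 endothelial, 3 of 4 erythroid and 9 of 9 fibroblast markers passed the filter. Of the 22 that passed, FAP, a protease of activated fibroblasts, lay above the other arrays at 4.61 and 5.07, and so did PTPRC, the leukocyte antigen CD45, at 0.63 and 0.89. Of all genes 6.52% lay above. The other leukocyte markers ran from -1.29 to 0.19 and the endothelial markers from -0.54 to 0.40 in A427. COL1A1 stood at -0.59 and -0.31, and COL3A1 at 2.71 and 2.56 where another array reached 7.91. Their part in the results was not tested.

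Between plastic and Matrigel the differences of A427 were smaller than those of any other line. The mean size of its 3D minus 2D difference over 15029 genes was 0.22 on the log2 scale, and in the other lines it was 0.34 ± 0.04 (SD, n = 7 lines; range 0.28 in H1703 to 0.40 in H661). An exact two-sided permutation test of A427 against 7 lines gave p = 0.125, which is the smallest this design allows. In A427, 163 genes differed by over 2-fold, against 330 to 1157 in the others. The correlation between its cultures, r = 0.947, was above the range of 0.801 to 0.930 (exact permutation p = 0.250). Over the 14228 genes whose higher A427 array was at -1 or more the size was again 0.22 in A427.

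The differences in A427 also had the lowest slope on the shared pattern. The slope of its differences on the mean of the other 7 lines was 0.17, against 0.70 ± 0.18 in the others (SD, n = 7 lines, range 0.38 in H1437 to 0.95 in H358; exact permutation p = 0.125). When each line was set against the 500 genes of smallest p in the remaining 7, the sign matched on 66.2% in A427 and on 71.8% (H1437) to 93.2% (H358) in the others. Over all genes the match was 56.6% in A427, with H1437 lower at 55.9%. Among genes with more than 1 probe set, the differences of a pair of probe sets of a gene correlated at r = 0.307 in A427 and 0.406 to 0.569 in the others. The 18S rRNA control of the array differed by -0.13 in A427 and -0.08 in H1437, the lines of lowest slope, and by -3.45 (H23) to -0.81 (H358) in the other 6. Its part in the result was not tested.

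**Figure D3:**
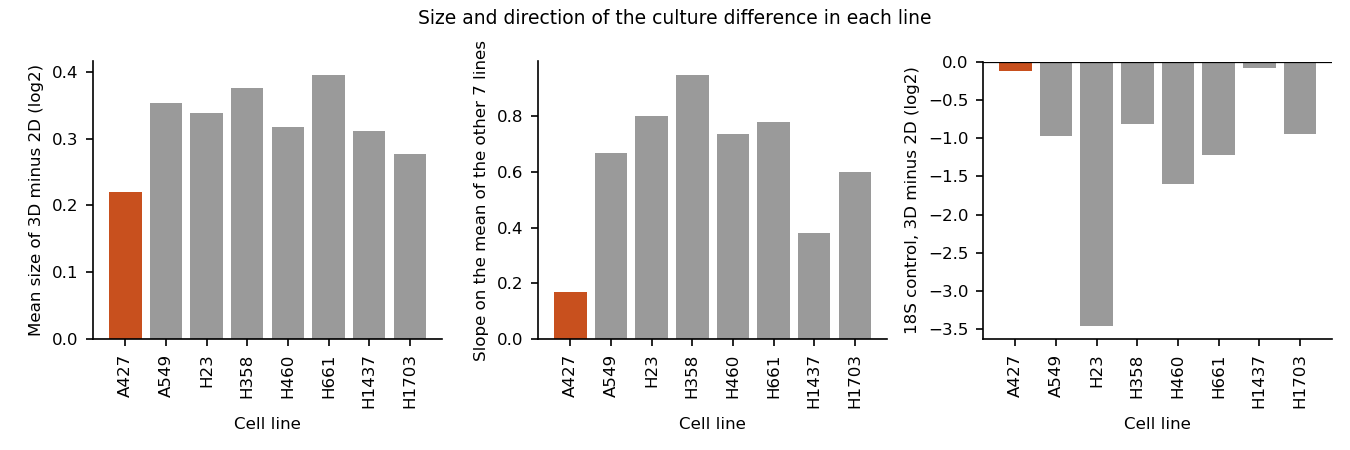
Bars give, for each line, the mean size of the 3D minus 2D difference over genes (left), the slope of a line's differences on the mean of the other 7 (middle) and the difference of the 18S control (right), all on the log2 scale except the slope, with 1 array per line and culture. A427, in orange, has the lowest size (0.22) and slope (0.17).

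Fitted without A427, the other 7 lines gave 852 called genes (5.67% of 15029), 263 higher in 3D (1.75%) and 589 lower (3.92%; limma). These genes were chosen by the other lines, so the values of those lines are a description, and A427 was not used. Of the 263, 171 were above 0 in A427 where 51.5% of all genes were, and 26 passed 1.5-fold. Their median was 0.11 in A427 and 0.56 in the other lines. Of the 589 lower genes 375 were below 0 in A427 and 22 passed 1.5-fold, with medians of -0.08 and -0.52. Over all genes 474 (3.15%) were higher and 485 (3.23%) lower by 1.5-fold in A427. Along the direction of the other lines the median was 0.09 in A427, and 64.1% of the 852 matched in sign.

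**Figure D4:**
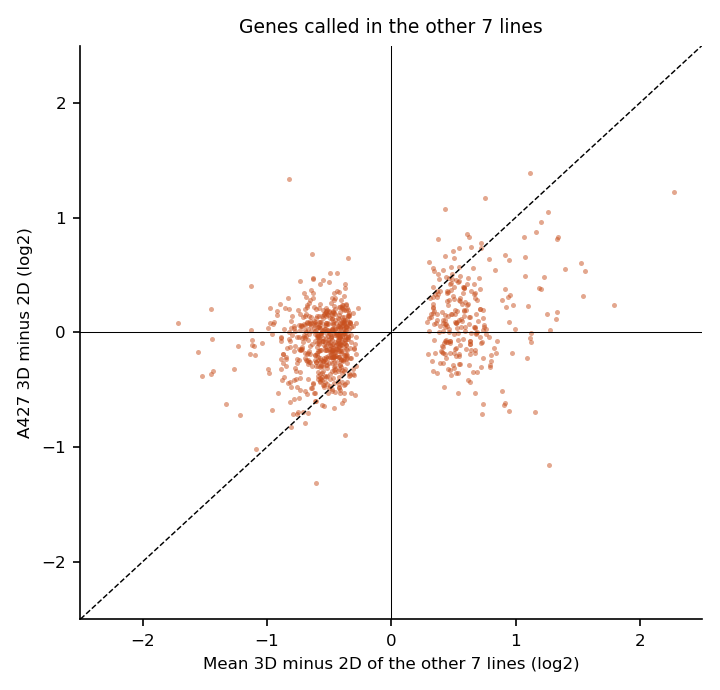
Each of the 852 genes called in the other 7 lines is a point at the mean of those lines (x axis) and its A427 difference (y axis), both 3D minus 2D in log2, with a dashed line of equal values. The points lie near the horizontal axis, with medians of 0.11 in A427 for the genes higher elsewhere and -0.08 for those lower.

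The alpha-arrestin gene ARRDC4, which glucose induces, went from -2.91 to -1.69 in A427, a difference of 1.22. In the other lines it ran from 0.45 (A549) to 4.15 (H661). IFITM1, an interferon-induced membrane protein, differed by 0.24 in A427 and by 0.82 or more in each other line. For SPAG4, SELENOP, CFAP96, PCAT6 and CFD the A427 values were 0.53, 0.31, 0.61, 0.55 and 0.11 beside means of 1.56, 1.54, 1.53, 1.40 and 1.33. LGALS3BP, a secreted galectin ligand, differed by 0.83 beside 1.34, CDC42EP5 by 0.81 beside 1.33 and SEC16B by 0.18 beside 1.34. On the low side MRTO4, a ribosome assembly factor, differed by 0.08 in A427 and by -2.28 to -0.56 in the others. STEEP1 differed by -0.17 against -1.89 to -0.93, and HEATR3, a ribosomal protein import factor, by 0.20 against -1.98 to -0.93. ALYREF, an mRNA export factor, differed by -0.38 beside a mean of -1.52, GNL3L, a nucleolar GTPase, by -0.34 beside -1.43, and CENPI, a centromere protein, by -0.62 beside -1.33. Of the 10 genes highest in the other lines ARRDC4, LGALS3BP, CDC42EP5 and CFAP96 passed 1.5-fold in A427, and of the 10 lowest CENPI.

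Mitosis genes stood farthest outside the range of the other lines. Of 28 mitosis genes 22 were called lower in 3D in the other 7 lines and 0 higher, where 3.92% and 1.75% of all genes were. The medians of those lines ran from -1.01 (H358) to -0.29 (H1703). In A427 the median was 0.07, 19 of 28 were above 0 and none passed 1.5-fold. CCNB1, cyclin B1, went from 0.21 to 0.67 in A427, a difference of 0.46 with probe sets at 0.43 and 0.50, while the other lines ran from -1.07 to -0.20. KIF23, a kinesin of cytokinesis, differed by 0.50 and TTK, a spindle checkpoint kinase, by 0.34, where the other lines had means of -0.37 and -0.46. SKA3, a kinetochore protein, differed by -0.36, against -2.32 to -0.85. The gap of single mitosis genes to the other lines did not pass the test in limma.

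Unlike the mitosis genes, DNA replication genes had an A427 median inside the range of the other lines. Of 31, 17 were called lower in the other 7 lines, where 3.92% of all genes were. In A427 the median was -0.22 with 5 above 0, and the other lines' medians ran from -0.80 (H358) to -0.17 (A549). The largest were POLA2, a subunit of DNA polymerase alpha (-0.54), CDC45 of the replicative helicase (-0.51), POLA1 (-0.50) and the licensing factor CDC6 (-0.44). Ribosome biogenesis genes had a median of 0.12 in A427 with 18 of 21 above 0, beside 0.17 in H1437 and -0.70 to -0.31 in the other 6 lines. NIP7 (0.84), WDR43 (0.64), POLR1B (0.55) and RRS1 (0.51) led them. The proteasome had a median of -0.06 beside -0.44 to -0.04, and cytosolic heat shock genes -0.23 beside -0.57 to -0.27.

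The hypoxia response was the list with the most genes called higher in the other 7 lines. Their median was 0.38 in A427, just under the range of the other lines (0.43 in H23 to 0.94 in H1437), and 24 of 27 were above 0. In A427 11 passed 1.5-fold upward and 0 downward, where 3.15% of all genes passed upward. In the other lines 10 were called higher by limma, against 1.75% of all genes. FAM162A, a mitochondrial gene induced by hypoxia, went from -0.98 to 0.07, a difference of 1.05 with 4 probe sets between 0.73 and 1.83, and the other lines ran from 0.44 to 2.36. BNIP3, a mitophagy receptor, went from -1.05 to 0.08 (1.13), ANKRD37 from 0.15 to 1.48 (1.33) and ANGPTL4, an inhibitor of lipoprotein lipase, from -1.43 to -0.37 (1.06). For these 4 genes A427 lay inside the range of the other lines.

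Glycolysis genes had a median of 0.25 in A427 beside 0.04 to 0.28. PGK1, phosphoglycerate kinase, was 0.77 higher, on 6 of 6 probe sets, hexokinase HK2 0.76 and the glucose transporter SLC2A1 0.59. Of 10 glucose-sensing genes 4 passed 1.5-fold upward and 0 downward, ARRDC4, TXNIP (1.07), KLF10 (1.12) and ARRDC3 (0.65), and the median was -0.01. TXNIP, an inhibitor of thioredoxin, had probe sets at 0.01, 1.12 and 2.08 in A427 and differed by 0.54 to 5.82 in the other lines. Basement membrane genes had a median of -0.08 in A427, under the range of 0.02 to 0.39 of the others. LAMB2, a laminin chain, differed by -0.35 in A427 and by 0.14 to 1.62 in the others, NID1 (nidogen) by -0.68 beside a mean of 0.40, and COL4A5 by -0.53 beside 0.46.

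Endoplasmic reticulum chaperones went the other way from most lines. The median was -0.38 in A427, the lowest of 8 lines, beside -0.29 in H661, -0.08 in H1703 and 0.17 to 0.38 in the other 5. Of 19 genes 2 were above 0 and 4 passed 1.5-fold downward, against a background of 3.23%. DNAJB9, a co-chaperone of BiP, went from 0.84 to 0.12, a difference of -0.71 with 3 probe sets between -0.77 and -0.66, while the others ran from 0.13 to 1.52. HERPUD1, of ER-associated degradation, went from 0.75 to -0.23 (-0.97), SDF2L1 from 2.21 to 1.54 (-0.68) and CRELD2 from 1.78 to 1.19 (-0.59). The 2D array of A427 was the higher one for each of these 4 genes.

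Targets of ATF4, the transcription factor of the amino acid and stress response, had a median of -0.54, and 12 of 24 passed 1.5-fold downward and 2 upward, against 3.23% and 3.15% of all genes. H460 (-1.20) and H661 (-1.36) had lower medians, and 0.13 in H1437 was the highest. CHAC1, which degrades glutathione, went from 0.47 to -0.83 (-1.30), and SLC7A11, the cystine transporter, from 0.13 to -1.14 (-1.27) with the other lines between -1.58 and 0.07. CEBPB differed by -1.20 and SESN2, a sestrin, by -1.08. Cholesterol synthesis genes had a median of -0.23, with TM7SF2, a sterol reductase, at -0.68 beside 0.00 to 1.58. Lysosome and autophagy genes had a median of -0.26 beside -0.44 to 0.22, with GABARAPL1, an ATG8 protein, at -0.53 beside 0.17 to 1.02.

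**Figure D5:**
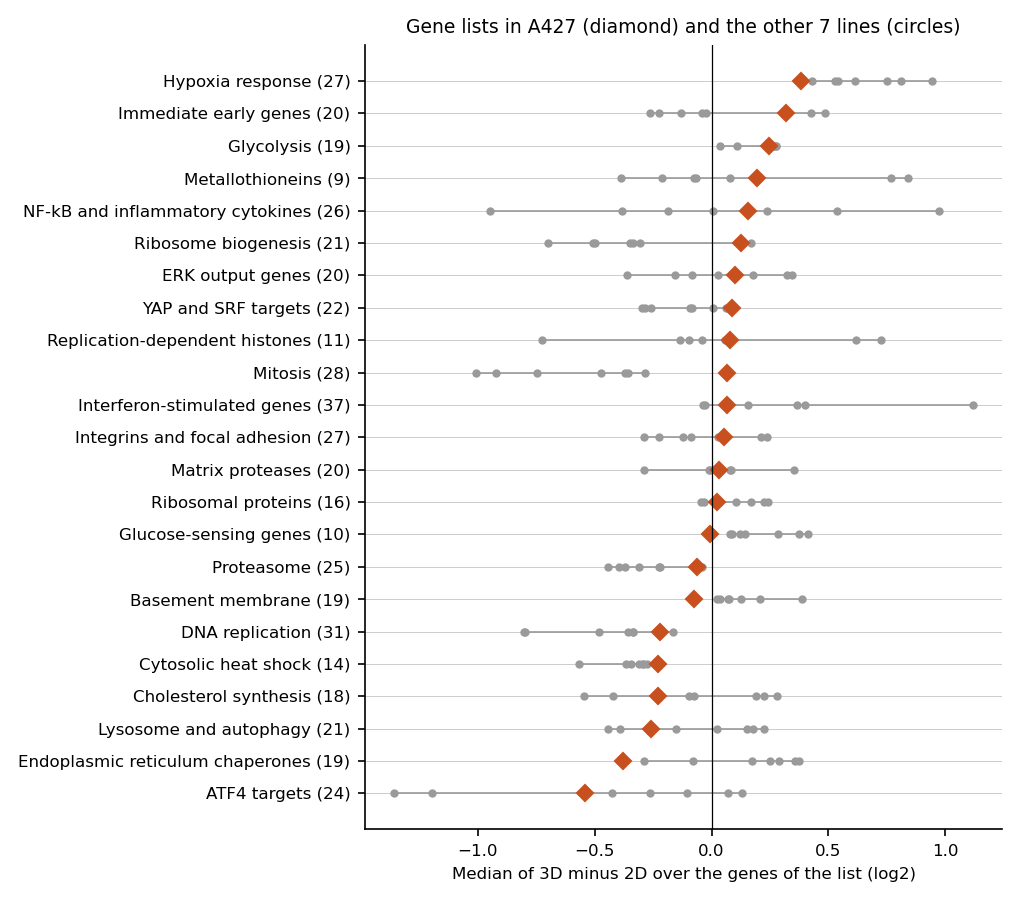
Median of the 3D minus 2D difference over the genes of each list (x axis, log2; number of genes tested in brackets) in A427 (orange diamond) and in each of the other 7 lines (grey circles joined by their range). The A427 diamond lies right of the range for mitosis (0.07), cytosolic heat shock (-0.23) and YAP and SRF targets (0.09), and left of it for endoplasmic reticulum chaperones (-0.38), basement membrane (-0.08), glucose-sensing genes (-0.01) and hypoxia (0.38).

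Immediate early genes had a median of 0.32 in A427, under 0.42 in H1437 and 0.49 in A549 and over -0.26 to -0.02 in the other 5. Of 20, 8 passed 1.5-fold upward and 1 downward, against 3.15% and 3.23% of all genes. IER3 went from -2.67 to -0.87 (1.80), FOS from -0.04 to 1.35 (1.39), FOSB from 0.07 to 1.27 (1.20) and KLF4 from -4.03 to -2.96 (1.07). IER3 ran from -0.96 to 0.31 in the other lines and FOS from -0.02 to 2.47. Of the ERK output genes DUSP5, a phosphatase of ERK, was 1.57 higher, EGR1 0.95 and FOSL1 0.95. In the NF-kB list 7 of 26 passed 1.5-fold upward and 0 downward, with the same 3.15% and 3.23% over all genes, led by the chemokine CXCL1 (2.28), the cytokine LIF (1.35), PTGS2, cyclooxygenase 2 (1.26), and TNFAIP3 (0.98). CXCL1 ran from -2.40 to 1.58 in the other lines. Each of these values rests on 1 array per culture.

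The A427 difference departed from that of the other 7 lines for 2 genes (0.0133% of 15029; limma on the 8 differences, 540 at an unadjusted p under 0.05). LOC105377276, an uncharacterised locus, went from 0.02 to 4.07 in A427, a difference of 4.05, and ran from -0.57 to 0.70 in the others (SD 0.39, n = 7 lines; adjusted p = 0.0302). SPAG17, a protein of the ciliary axoneme, went from 2.69 to -0.48 (-3.17), and ran from -0.03 to 0.98 (SD 0.37, n = 7 lines; adjusted p = 0.0390). For these genes A427 lay beyond every other line, and each rests on 1 probe set. Leaving out A549, H358 or H1437 left 1 gene called, and leaving out H23, H460, H661 or H1703 left 0 by limma, with 452 to 601 at an unadjusted p under 0.05. With the 18S difference as a covariate 0 were called by limma, with 401 at an unadjusted p under 0.05.

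Among genes with 2 or more probe sets of like sign, the highest A427 differences were those of NT5E, the ecto-nucleotidase CD73 (-2.32 to -0.95, 1.37), FAM133A (1.36), PTGS2 and SERPINB1, an inhibitor of neutrophil proteases (1.25). SOCS2, a suppressor of cytokine signalling, differed by 1.20, PHLDA2 by 1.17 and FSCN1, the actin bundler fascin, by 1.12. ENC1 went from -2.06 to -0.87 (1.19) and was below 0 in all 7 other lines, -2.41 to -0.21. ZBTB24 (1.17) and CXorf38 (1.08) were above 0 in all 7 others. SH3RF2 (1.17) and BNIP3 (1.13) complete the 12. The lowest were REPS2, an endocytic adaptor (2.60 to 0.79, -1.82), the ephrin receptors EPHA5 (-1.51) and EPHA7 (-1.31), LMCD1 (-1.42) and REEP1 (-1.39).

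REPS2 differed by -2.41 to -1.39 on its 3 probe sets in A427 and by -0.08 to 0.37 in the other lines, and it did not pass the test (limma, adjusted p = 0.0636). EPHA7 went from 4.15 to 2.84 on 4 probe sets between -1.80 and -1.10, and A549 (-0.95) was the nearest line. FAM111B, SLC7A11, ZFHX4, SLC1A4, HAGLR, SRGAP2 and SESN2 complete the 12, with differences from -1.27 to -1.08. Among the WNT targets 4 of 23 passed 1.5-fold downward in 3D and 1 upward, against 3.23% and 3.15% of all genes, the median being -0.16 beside -0.10 to 0.11 in the others. LEF1 differed by -1.04, with its 3 probe sets at -1.42, -0.96 and -0.73, and the other lines ran from -0.57 to 0.05. AXIN2 differed by -0.84, but its 4 probe sets gave -2.86, -0.55, -0.29 and 0.33. ASCL2 (-0.83) and FGF9 (-0.67) were the others, and NKD2 (0.59) passed upward. None of these WNT targets passed the test of A427 against the other lines.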

How the data were processed

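The authors deposited 1 table of log2 ratios for 54675 probe sets on 16 arrays. From the values, 63.5% of probe sets were divided by their own median and 36.5% (dim) by a larger fixed reference, and the lowest ratio was 0.01 (297 values). The sources used here do not name the software, the probe summary or the normalisation. Of the probe sets 41097 had 1 gene symbol, 1801 several and 11777 none, and the symbols matched 19775 genes. A dim probe set was kept if at least 2 of 16 arrays reached log2 1, and a gene is the mean of its kept probe sets. The arrays of a line were averaged as 1 sample. With limma 3.58.1 in R 4.3.3 (eBayes with trend, Benjamini-Hochberg over 15029 genes, called under 0.05), A427 was set against the other 7 lines on 8 line means (6 residual df) and on 8 differences of 3D minus 2D, and the 7 other differences were tested against 0. The trend gives unusable SEs at extreme mean ratios, so SDs over the other lines are printed. The p-values come from the same fit and share this limit, and 65 of the 67 called genes were also called without the trend. Arrays give no read depth, and their number limits the precision.

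Steps were tested on simulated data. The members, the gene lists and the tests were chosen with earlier results of these data known. Named genes are the 15 highest and lowest called, up to 4 per list, all WNT targets and SWI/SNF subunits, and 6 genes often altered in lung cancer. In culture they are the 12 highest and lowest with probe sets of like sign, the called genes, up to 4 per list and the 10 highest and lowest of the other 7 lines. The text gives part of them and marks others. Cultures were paired by line name, as labelled. Alternatives were the choice of probe set, the filter, centring, quantile normalisation, 1 culture alone, a random line block, no trend, an 18S covariate and leaving out each line.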

Additional observations from a re-analysis of the deposited data

Results flagged for a closer look

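Among 63 sets of values over lines (8 measures per line, the medians of 23 response lists, and the 32 called genes that pass without A427, the last over the other 7 lines), 11 values stood far from the rest by Dixon's test, where chance flags about 1 in 20 sets. None of them was an A427 value, but the 32 sets of called genes left A427 out and could not flag it. The difference of the 18S control in H23 was -3.45. H358 stood apart in the median of interferon-stimulated genes (1.12) and of cytosolic heat shock genes (-0.57).

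Of the genes called in A427, H23 was the line nearest to A427 for the WNT targets FGF20 (mean of its arrays 1.84) and LEF1 (0.074), each apart from the remaining 6 lines. A549 stood apart for LRRTM4 (1.97) and ASB4 (0.93), and H661 for ROBO2 (0.22) and YPEL3-DT (-0.73). H1437 was the lowest of the other lines for PRKCSH (-0.74) and ZNF182 (-0.75). By the test of the difference itself, the culture difference of A427 departed from that of the other lines by 3.97 for LOC105377276 and by -3.42 for SPAG17 (limma).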

How the results depend on the processing

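The number of genes called in A427 against the other lines (67) was 108 with no filter on dim genes, 9 with probe sets at their own median only and 12 over genes that pass without A427, an alternative added after seeing the data. It was 51 to 76 when each other line was left out and 54 to 89 under the remaining settings. The 2 genes of the culture contrast became 24 with no filter, 5 after quantile normalisation, 4 with no trend and 1 with no probe sets of suffix s or x. They became 0 by limma with probe sets at their own median only (514 at an unadjusted p under 0.05) and with the 18S difference as a covariate (401), and 0 to 1 when each other line was left out (452 to 724 at an unadjusted p under 0.05). The mean size of the A427 difference was 0.18 with no filter. The causes of these changes were not tested.

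Median (0.06 to 0.18) and slope (0.14 to 0.21) of A427 moved by less than the SD of the other lines. The sign match was 61.6% to 67.6% under other settings and 62.7% to 72.6% when each other line was left out. Of these values only that without H23 (72.6%) moved by more than that SD (7.24 points). Of 2720 values of named genes under alternatives, 2613 kept their side of the threshold, 101 lost a call, 6 gained one and 0 changed sign while called. Most of the 2720 belong to genes not called in the main fit, which had no call to lose, so the 101 fall on the fewer called genes. CEP41 was called in 7 of 18 alternatives, MAN2B1 in 7 of 17, ZNF182 in 8 of 18 and LRRTM4 in 8 of 17. AXIN2 was called in 8 of 18 alternatives, TIMP1 in 10 of 18, LEF1 in 15 of 17, APCDD1 in 16 of 18 and FGF20 in 17 of 17. The probe set of FGF20 is dim, so the setting of probe sets at their own median only could not test it. The culture test is paired by line through its differences, and no other replicate block could be fitted because the labels carry no replicate numbers. Ratios at the lowest value bound TIMP1 and PRTFDC1, 1 of 2 probe sets of PRKCSH and 1 of 4 of MBNL2.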
